A study of Rattus norvegicus with 6 samples.

Results

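The urea cycle converts ammonia, most of which comes from the breakdown of amino acids, into urea that the kidney excretes. It runs almost entirely in hepatocytes, with its first steps in the mitochondrion and the remainder in the cytosol. Nags makes N-acetylglutamate, the activator that Cps1 needs. Cps1 joins ammonia and bicarbonate into carbamoyl phosphate, and Otc transfers it to ornithine to give citrulline. Slc25a15 exchanges ornithine and citrulline across the inner mitochondrial membrane. Ass1 couples citrulline to aspartate, Asl splits the product into arginine and fumarate, and Arg1 cleaves arginine into urea and ornithine. The pathway is known to follow the protein supply of the diet, mainly through the amounts of its enzymes.

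The 7 genes Cps1, Otc, Ass1, Asl, Arg1, Nags and Slc25a15 were taken by their symbol from 33022 loci of rat liver RNA sequencing data, of which 32158 carried a symbol. Each symbol occurred at 1 locus, and all 7 passed the filter of a mean of at least 1 FPKM (fragments per kilobase of transcript, scaled between libraries in the authors' processing), as did 10201 loci in all. Male obesity-prone Sprague Dawley rats were fed a control diet (CD) or a Western diet (WD) for 2 weeks, fasted overnight and refed briefly. The WD held more milk fat, sucrose and cholesterol than the CD and drew a smaller share of its calories from protein. RNA was taken from total liver RNA and from the light and heavy parts of a sucrose gradient, which hold mRNAs bound by 3 or fewer and by 4 or more ribosomes. Every combination of diet and RNA was sequenced as 1 library (6 in all) from the pooled RNA of 3 rats, so no spread between rats was measured, no difference between the diets could be tested, and every comparison is a description of these libraries. The comparisons asked whether the WD changed the amount of an mRNA or its association with ribosomes.

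Expression of the hepatocyte markers was high in every library, with a summed level of 51922 to 148650 FPKM for 10 genes including Alb, whereas 4 cholangiocyte markers summed to 0 to 4.35 FPKM with Krt7 and Spp1 listed at 0 throughout. Kupffer cell and macrophage markers (8 genes) summed to 71.9 to 155 FPKM, endothelial markers (5 genes) to 54.8 to 76.5 FPKM and stellate cell markers (5 genes) to 42.2 to 75.9 FPKM. Of 5 blood cell markers, Hba1 and Hbb, the globins of red blood cells, summed to 32.0 FPKM in the CD light library and to 405 FPKM in the WD light library. That library also had the highest inferred depth, at 2.34 times the CD heavy library against 1.00 to 1.57 for the others. Depth was inferred from the FPKM value of 1 fragment, so it also carries any scaling between libraries. The WD light library had the highest FPKM sum over loci with a symbol (866676, against 616030 to 699570). In such RNA from whole tissue, fewer hepatocytes and less mRNA per hepatocyte cannot be told apart.

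mRNAs of ribosomal proteins and other components of the translation machinery often begin with a run of pyrimidines, the terminal oligopyrimidine (TOP) motif, through which the kinase mTORC1 acts on their loading with ribosomes. The first 20 bases from the annotated start of the urea cycle genes are shown because the study centred on ribosome loading and mTORC1. They are from RefSeq (assembly GRCr8), where 6 of the 7 genes had an entry, and capitals mark an unbroken run of C or T at the start.
Cps1: ggagtccagtatcaaggtag
Otc: Tgcaactgaaagcattctta
Ass1: Caatccaaggtattttccac
Asl: CTTaattctaggtgttccta
Nags: gaacccctagtgttgtgcgc
Slc25a15: ggatatgtggttcacatcct
The starts lie at chr9:76063863-76063882 for Cps1, chrX:15202454-15202473 (minus strand) for Otc, chr3:35149730-35149749 for Ass1, chr12:32295908-32295927 for Asl, chr10:87598516-87598535 for Nags and chr16:76336870-76336889 for Slc25a15, the others being on the plus strand. A TOP start, searched on the sense strand as C followed by at least 4 further C or T, was present in 0 of these 6 genes. It was present in 881 of 33469 entries (2.63%) and in 24 of 65 cytosolic ribosomal protein genes (36.9%). The longest run was that of Asl, with 3 pyrimidines. Annotated starts can differ from those used in liver.

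In the authors' files, which use assembly Rnor_6.0, the genes lie on 7 different chromosomes. Their spans, each the whole locus with exons and introns, are chr9:74124015-74236274 for Cps1, chrX:13524606-13601069 for Otc, chr3:10327413-10371240 for Ass1, chr12:30125167-30180115 for Asl, chr1:21525420-21537863 for Arg1, chr10:90085558-90089693 for Nags and chr16:74531563-74554529 for Slc25a15. The span of Asl is shared with Crcp, which was listed at 0 in both heavy libraries and reached 12.1 FPKM in the WD light library. RefSeq names pseudogenes of Ass1 (2) and of Slc25a15 (1), so reads of these genes may have been split with near-identical copies.

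The mRNAs of the mitochondrial steps came first. Cps1, the entry enzyme, was at 320 FPKM with the CD and 344 FPKM with the WD in total RNA. In the light fraction, its level was 142 FPKM with the CD and 159 FPKM with the WD, and in the heavy fraction it was 531 and 570 FPKM. Cps1 was thus slightly higher with the WD in each kind of RNA, by 0.10, 0.16 and 0.10 on the log2 scale (changes are of FPKM + 0.1, WD over CD). With each library rescaled to the same FPKM sum, the light fraction change of Cps1 turned to -0.20 and those in total RNA and the heavy fraction were 0.20 and 0.078. No number of fragments could be inferred for Cps1, so its counting error is not given.

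Otc, the second enzyme, was at 198 (CD) and 200 (WD) FPKM in total RNA, at 124 and 107 FPKM in the light fraction and at 747 and 661 FPKM in the heavy fraction. It was the most abundant urea cycle mRNA in both heavy libraries, although Cps1 and Arg1 stood above it in total RNA. The number of fragments behind each value was inferred from the steps of the FPKM values, and for Otc lay between 146 and 821. From these numbers, the WD to CD ratio of Otc was 0.886 in the heavy fraction (95% interval 0.801 to 0.979), while the intervals for total RNA and the light fraction included 1. Such intervals cover counting error only and compare libraries, not diets.

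Nags was the least abundant of the 7 mRNAs in every library. Its total RNA level was 17.4 FPKM with the CD and 27.3 FPKM with the WD, on 38 and 57 fragments. In the light fraction, Nags was at 16.1 FPKM with the CD and 21.3 FPKM with the WD, and in the heavy fraction it was at 47.5 and 42.1 FPKM. It was higher with the WD in total RNA and in the light fraction and slightly lower in the heavy fraction.

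Slc25a15, the ornithine carrier, was at 90.7 (CD) and 85.7 (WD) FPKM in total RNA, at 102 and 138 FPKM in the light fraction and at 89.0 and 95.3 FPKM in the heavy fraction. The WD light library was highest, and the remaining 5 lay within 85.7 to 102 FPKM.

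Of the cytosolic enzymes, Ass1 was at 131 (CD) and 107 (WD) FPKM in total RNA. Its light fraction level was 47.8 FPKM with the CD, on 51 fragments, and 124 FPKM with the WD, on 287 fragments. In the heavy fraction, Ass1 was at 94.7 FPKM with the CD and 92.4 FPKM with the WD, each on 94 fragments. The CD light library thus stood apart as the lowest of the 6, and the remaining libraries lay between 92.4 and 131 FPKM.

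Asl was at 137 (CD) and 159 (WD) FPKM in total RNA, at 151 and 117 FPKM in the light fraction and at 414 and 452 FPKM in the heavy fraction. Its level was higher with the WD in total RNA and the heavy fraction and lower in the light fraction, the reverse of Ass1 in each, although for both genes the total RNA and heavy fraction intervals included a ratio of 1.

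Arg1, the last enzyme of the cycle, was at 247 (CD) and 254 (WD) FPKM in total RNA, at 221 and 307 FPKM in the light fraction and at 394 and 358 FPKM in the heavy fraction. It was the most abundant urea cycle mRNA in both light libraries.

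**Figure D1:**
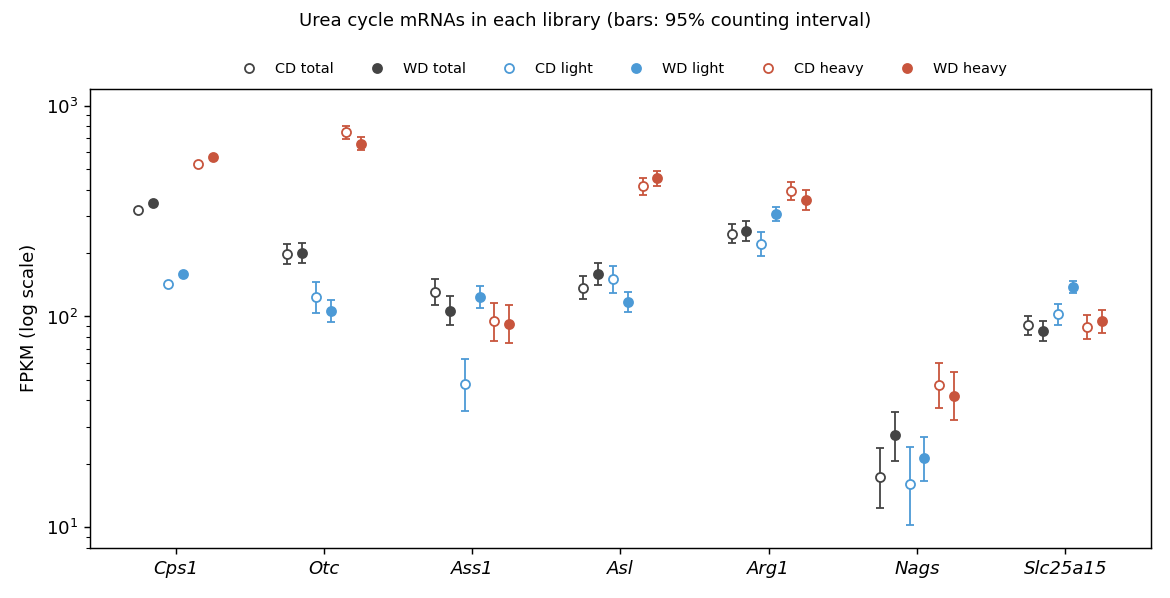
Level of each urea cycle mRNA in FPKM (log axis) in the 6 libraries, with open points for the CD, filled points for the WD, and bars for the 95% counting interval where fragment numbers could be inferred (none for Cps1). Otc, Cps1, Asl, Nags and Arg1 were highest in the heavy libraries, Ass1 was low in the CD light library (47.8 FPKM), and Nags was below the others throughout.

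Because FPKM values are per transcript length, levels can be ordered between genes. In total RNA with the CD, the order was Cps1, Arg1, Otc, Asl, Ass1, Slc25a15 and Nags, and it was the same with the WD. Counting intervals of neighbours overlapped for Asl and Ass1 with the CD (121 to 155 and 113 to 150 FPKM) and for Ass1 and Slc25a15 with the WD (90.7 to 124 and 76.7 to 95.5 FPKM). The heavy libraries had the order Otc, Cps1, Asl and Arg1, followed by Ass1 and Slc25a15, whose intervals overlapped in both diets, and Nags, and Asl and Arg1 overlapped with the CD (378 to 453 and 355 to 436 FPKM). The light order was Arg1, Asl, Cps1, Otc, Slc25a15, Ass1 and Nags with the CD, where Otc and Slc25a15 overlapped (104 to 145 and 90.9 to 115 FPKM). With the WD, Slc25a15 and Ass1 stood above Asl and Otc, and each of these 4 overlapped its neighbour in that order. By the wider bounds that Cufflinks gives for each FPKM value, every neighbouring pair overlapped in every library, as did the CD and WD value of each of the 7 genes in each kind of RNA.

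The ratio of heavy to light FPKM, the study's measure of ribosome density, separated the urea cycle mRNAs. Ratios of at least 1.5 and at most 0.75 were counted throughout. The study set these limits on the CD to WD ratio of density, and here they were applied to WD over CD and to levels within a diet, for which the study gave no limit. With the CD, 6 of 7 had a heavy to light ratio of at least 1.5, where 32.9% of all loci compared and 34.9% of those averaging at least 10 FPKM, as all 7 genes did, had one. None of the 7 was at or below 0.75 (36.6% and 31.9%). Otc was highest at 6.04 (95% interval 5.06 to 7.25), followed by Cps1 at 3.73, Nags at 2.94 (1.83 to 4.93), Asl at 2.75 (2.32 to 3.28), Ass1 at 1.98 (1.39 to 2.84) and Arg1 at 1.78 (1.51 to 2.11). Slc25a15, the membrane carrier, was at 0.869 (0.726 to 1.04). Neighbours from Nags to Arg1 overlapped in their intervals, and Arg1 and Slc25a15 did not. The median log2 ratio was 1.46 over the 7 genes and 0.012 over all loci.

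With the WD, 4 of 7 genes had a ratio of at least 1.5 (31.4% of all loci compared, 37.1% from 10 FPKM) and 2 of 7 a ratio of at most 0.75 (38.5% and 32.1%). Otc was again highest at 6.19 (5.39 to 7.15). Asl followed at 3.86 (3.35 to 4.45), Cps1 at 3.59 and Nags at 1.98 (1.38 to 2.84). Arg1 was at 1.17 (1.02 to 1.33), Ass1 at 0.747 (0.585 to 0.946) and Slc25a15 at 0.691 (0.597 to 0.797), the last 2 with overlapping intervals. With each library rescaled to the same FPKM sum, Ass1 and Slc25a15 moved to 0.925 and 0.856 and were no longer at or below 0.75, and with a limit of 1.5-fold either way neither was called lower.

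**Figure D2:**
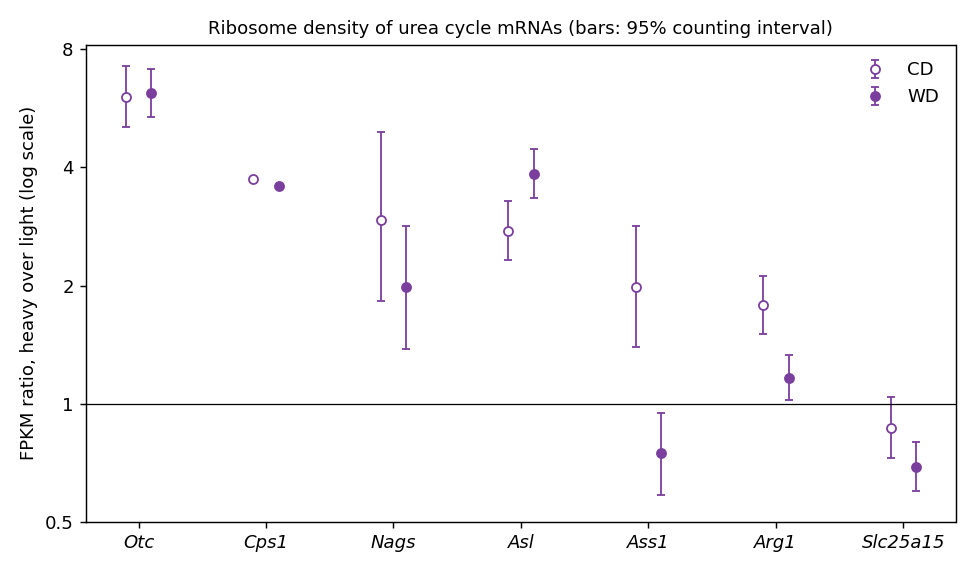
Ratio of heavy to light FPKM (log axis) for each urea cycle mRNA, ordered by the CD ratio, with open points for the CD, filled points for the WD and bars for the 95% counting interval (none for Cps1). Otc lay near 6 in both diets, and Ass1 had the widest gap between the diets (1.98 and 0.747).

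Heavy fraction levels relative to total RNA gave a similar division without the light libraries. With the CD, the ratio of heavy to total FPKM was 3.77 for Otc, 3.02 for Asl, 2.73 for Nags, 1.66 for Cps1 and 1.59 for Arg1, and it was 0.981 for Slc25a15 and 0.724 for Ass1. With the WD, it was 3.30 for Otc, 2.84 for Asl, 1.66 for Cps1, 1.54 for Nags, 1.41 for Arg1, 1.11 for Slc25a15 and 0.867 for Ass1. Cps1 had nearly the same value in both diets. Ass1 was below 1 on this scale with the CD, although its heavy to light ratio with the CD was above 1.

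In total RNA, the diets differed little for urea cycle mRNAs. Of the 7 genes, 5 were higher and 2 lower with the WD, with a median log2 change of 0.040 against 0.022 over all loci compared. Nags was the only gene at a ratio of at least 1.5 (17.7% of all loci compared, 8.77% from 10 FPKM), with a log2 change of 0.65 and a ratio of 1.57 (95% interval 1.02 to 2.43). None of the 7 was at or below 0.75 (22.7% and 16.2%). Ass1 had the lowest change, at -0.30 (ratio 0.815, interval 0.658 to 1.01). Asl had a change of 0.21 (ratio interval 0.973 to 1.38), and Cps1, Otc, Arg1 and Slc25a15 lay between -0.081 and 0.10.

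The light fraction held the widest differences. Ass1 was 2.58-fold higher with the WD (1.92 to 3.56), a log2 change of 1.37, and was the only one of 7 at a ratio of at least 1.5 (25.9% of all loci compared, 17.1% from 10 FPKM). Arg1 was higher by 0.47 (ratio interval 1.19 to 1.62) and Slc25a15 by 0.43 (1.17 to 1.55) on the log2 scale. Nags had a change of 0.40 with an interval that included 1 (0.820 to 2.20). Asl was lower at -0.36 (0.647 to 0.936), above the lower threshold, which 0 of 7 reached (26.8% and 27.2%), and Otc had a change of -0.21 (0.704 to 1.06). The median was 0.40 over the 7 genes and 0.017 over all loci. With the limits set on CD over WD, Arg1 (0.720) and Slc25a15 (0.743) also passed, so that 3 of 7 were called higher with the WD, where 32.2% of all loci were. Rescaling to the same FPKM sum shifted the median of all loci by -0.31, and the share of higher among all calls moved from 49.1% to 28.2%. Under it Ass1 stayed at 1.02, whereas Otc and Asl, at -0.57 and -0.72, lay below the lower threshold and the median of the 7 genes was 0.049. After this rescaling, 17.4% of all loci compared were called higher and 44.1% lower. Globin levels and depth of the WD light library differed from those of the others as given above, and their part in these results was not tested.

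Heavy fraction levels of the 7 mRNAs were close between the diets. All 7 log2 changes lay between -0.17 (Otc) and 0.12 (Asl). By the largest of these sizes, 31.4% of loci averaging at least 10 FPKM, and 26.0% of all loci compared, lay as close to 0. Those loci were not matched to the 7 genes in level. None of the 7 reached a ratio of at least 1.5 (21.7% of all loci compared, 13.3% from 10 FPKM) or at most 0.75 (25.8% and 19.2%). The change was -0.17 for Nags, -0.14 for Arg1, -0.035 for Ass1, 0.098 for Slc25a15 and 0.10 for Cps1. Otc was the only one of 6 with an interval that did not include 1. The fragment numbers of Nags (66 and 60) could not distinguish ratios between 0.615 and 1.28.

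**Figure D3:**
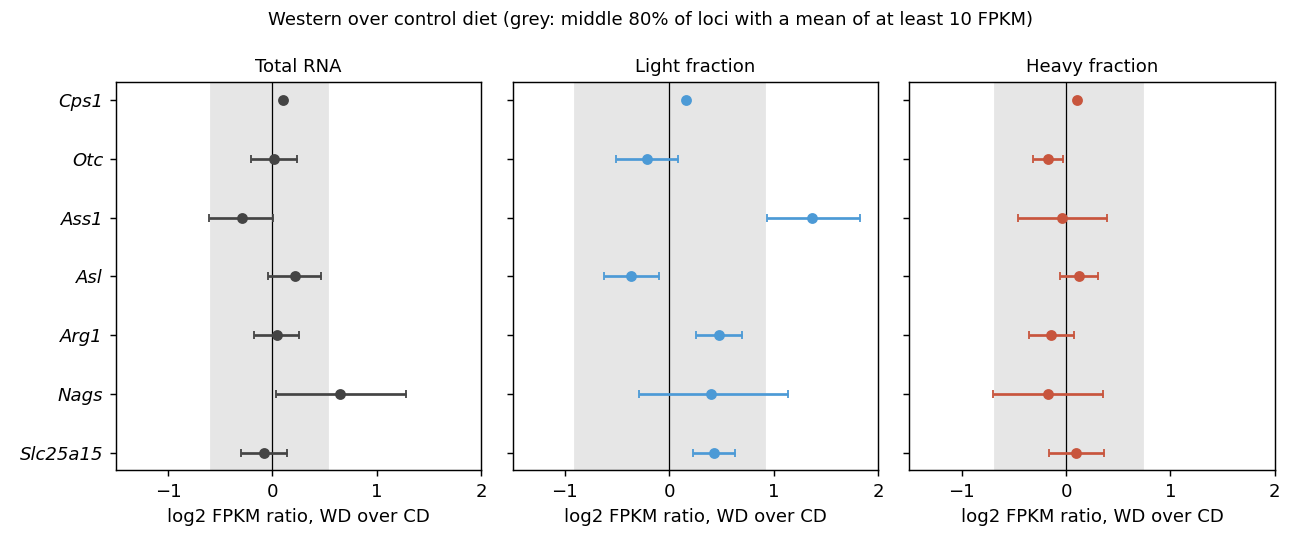
log2 ratio of FPKM, WD over CD, for each urea cycle mRNA in total RNA, the light fraction and the heavy fraction. Bars are 95% counting intervals (none for Cps1) and grey bands hold the middle 80% of loci averaging at least 10 FPKM. Only Nags in total RNA (0.65) and Ass1 in the light fraction (1.37) lie outside the band, and the heavy fraction changes span -0.17 to 0.12.

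The change of ribosome density combines the last 2 comparisons and shares their libraries. For Ass1, it was -1.40 on the log2 scale, a ratio of 0.378 (95% interval 0.244 to 0.582). Arg1 was at -0.61 (ratio 0.653, 0.526 to 0.811) and Nags at -0.57 (0.672, 0.358 to 1.24). These 3 of 7 were at or below 0.75, as were 36.1% of all loci compared and 27.6% from 10 FPKM, and none of the 7 was at or above 1.5 (27.7% and 23.3%). Slc25a15 had a change of -0.33 (ratio interval 0.632 to 1.003), Cps1 of -0.054 and Otc of 0.037 (0.814 to 1.29). Asl was the only gene with an interval above 1, at 0.49 (1.12 to 1.76). With the limits set on the CD to WD ratio of density instead, Ass1 (2.65) and Arg1 (1.53) were at or above 1.5, as were 30.9% of all loci compared and 21.4% from 10 FPKM, and Nags (1.49) was not. Asl (0.713) was then at or below 0.75, as were 32.9% and 30.3%. Ass1 and Asl, which carry out consecutive steps, thus had the lowest and the highest change of the 7.

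The density changes rested on the light libraries. When the heavy fraction was set over total RNA instead, Ass1 was higher with the WD, at 0.26 (ratio 1.20), Asl was at -0.088, Arg1 at -0.18 and Slc25a15 at 0.18. Only Nags stayed below the lower threshold, at -0.82, with a change of 0.65 in total RNA in the divisor. On this scale, 31.0% of all loci compared were at or below the lower threshold and 26.7% at or above the upper one. Rescaling to the same FPKM sum shifted the median of all loci by 0.30, with the share of higher among all calls at 58.3% against 43.4%. Under the rescaling, Ass1 was at -1.08 and still below the lower threshold, where 27.2% of all loci compared were. Asl passed the upper one at 0.82 (38.0% of all loci compared), and Arg1 (-0.28) and Nags (-0.25) no longer passed. The median density change of the 7 genes went from -0.33 to -0.00068 with this rescaling. With changes centred on the median of all loci compared instead, Ass1 (-1.38), Arg1 (-0.59) and Nags (-0.55) were below the lower threshold. Asl, at 0.51, was then not above the upper one.

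Shares of each mRNA in the summed FPKM of the 7 genes do not depend on the scaling between libraries. The sum was 1141 (CD) and 1177 (WD) FPKM in total RNA, 804 and 972 FPKM in the light fraction and 2317 and 2271 FPKM in the heavy fraction. Ass1 made up 5.95% of the sum in the light fraction with the CD and 12.7% with the WD, against 4.09% and 4.07% in the heavy fraction and 11.5% and 9.06% in total RNA. Otc held 15.4% of the light sum with the CD and 11.0% with the WD, and 32.2% and 29.1% of the heavy sum. The light share of Asl was 18.7% with the CD and 12.0% with the WD, whereas its heavy share was 17.9% and 19.9%. Arg1 held the largest share of the light sum, with 27.5% (CD) and 31.6% (WD). Cps1 held 28.0% and 29.2% of the total RNA sum and 22.9% and 25.1% of the heavy sum. Nags held 1.52% and 2.32% of the sum in total RNA.

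**Figure D4:**
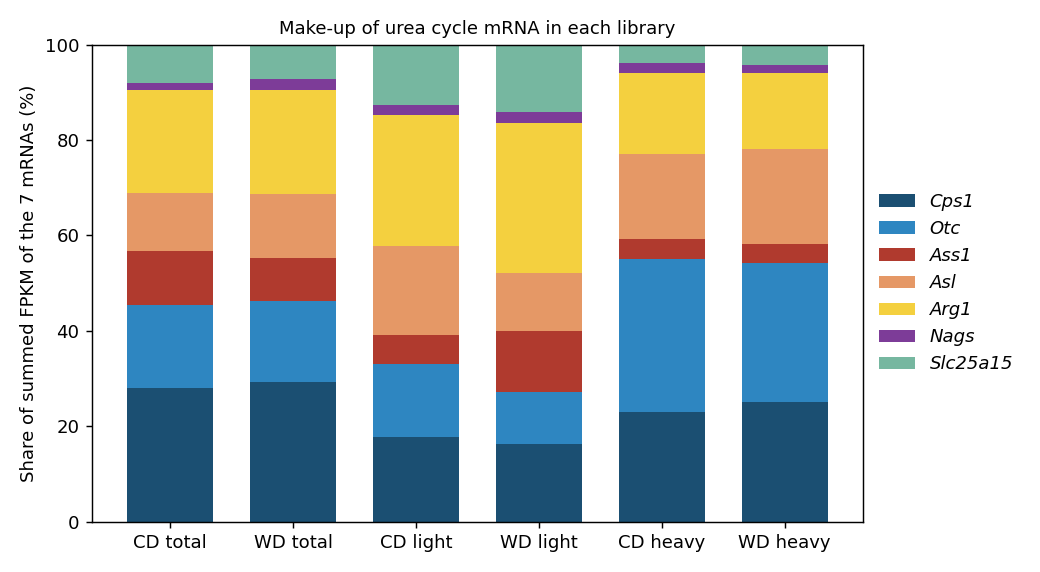
Share of each urea cycle mRNA in the summed FPKM of the 7 genes, in percent, as 1 stacked bar per library that adds up to 100. The segment of Ass1 is wider in the WD light library (12.7%) than in the CD light library (5.95%) and the same in both heavy libraries, where Otc takes the largest share.

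Genes that supply the cycle with ammonia, bicarbonate and aspartate were described from a list of 13, of which 12 were compared. In the heavy fraction, 11 of the 12 had a lower level with the WD, with a median log2 change of -0.29 against -0.015 over all loci, and 4 were at or below 0.75 (25.8% of all loci compared, 19.2% from 10 FPKM). In total RNA, 8 were lower and 4 higher (median -0.25), with 2 at or below 0.75 (22.7% and 16.2%), a share near that of all loci. Glud1, glutamate dehydrogenase, was at 390 FPKM with the CD and 266 FPKM with the WD in the heavy fraction, a change of -0.55 (ratio interval 0.609 to 0.763), and at -0.30 in total RNA. Gpt, alanine aminotransferase, was at 40.9 FPKM on 72 fragments (CD) and 17.8 FPKM on 30 fragments (WD) in total RNA, a change of -1.19 (0.275 to 0.676). Slc25a13, the mitochondrial aspartate carrier, had a heavy fraction change of -0.34 (0.683 to 0.913) with a total RNA change of 0.036. Car5a, a mitochondrial carbonic anhydrase, had a total RNA change of 0.42 on 18 and 23 fragments, with an interval that included 1 (0.690 to 2.63). With the CD, 12 of 12 supply genes had a higher level in the heavy than in the light fraction. So did 6 of 7 urea cycle genes and 8 of the 10 hepatocyte markers. The median log2 heavy to light ratio of the supply genes was 1.20, against 0.012 over all loci compared.

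**Figure D5:**
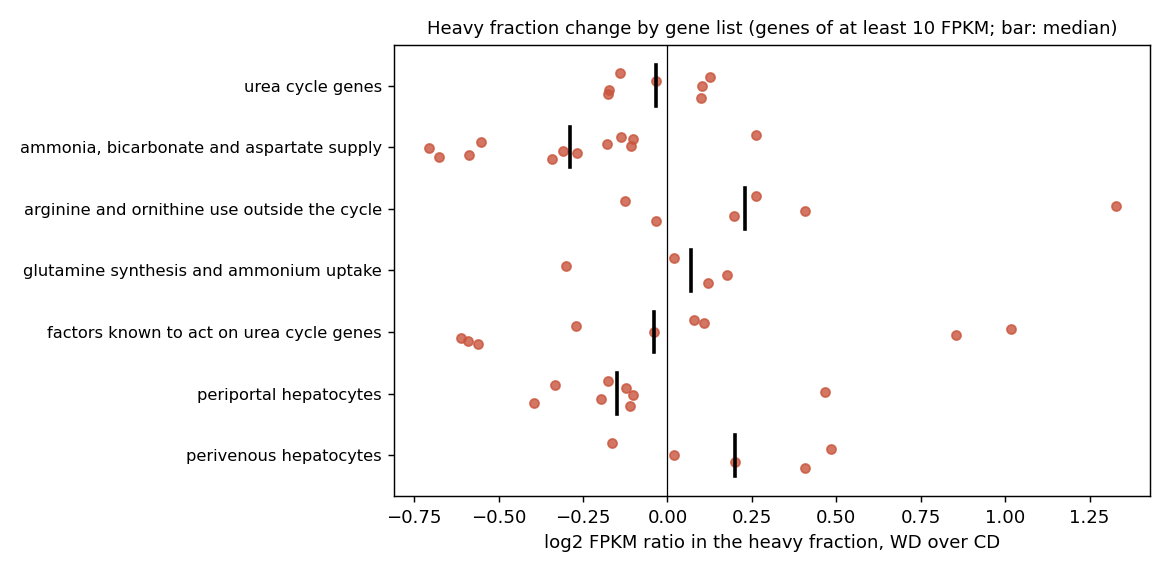
log2 ratio of heavy fraction FPKM, WD over CD, for the genes of each list that averaged at least 10 FPKM (points), with the list's median as a bar. The 7 urea cycle genes lie between -0.17 and 0.12, with 4 below 0. The 12 supply genes compared lie between -0.71 and 0.26, with 11 below 0.

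Arginine and ornithine use outside the cycle was covered by 10 genes, of which 7 were compared. In the heavy fraction, 4 of them were higher and 3 lower (median 0.20). Oat, which turns ornithine into glutamate semialdehyde, was at 126 (CD) and 167 (WD) FPKM in the heavy fraction, a change of 0.41 (1.09 to 1.62). Gamt, which completes creatine synthesis, was at 16.8 FPKM on 15 fragments (CD) and 81.3 FPKM on 158 fragments (WD) in the light fraction, a change of 2.27 (2.85 to 8.86). Its heavy fraction change was 1.33 (1.26 to 5.39) on 12 and 31 fragments. The total RNA change of Gamt was -0.45 on 33 and 23 fragments, with an interval that included 1 (0.409 to 1.28). Slc7a2, an arginine transporter, had a total RNA change of -0.30 (0.678 to 0.970).

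Glutamine synthesis is the second route by which the liver takes up ammonia. It was covered together with ammonium and amino acid transport by a list of 6 genes. Glul, glutamine synthetase, was lower in the heavy than in the light fraction in both diets. Its level was 105 (CD) and 117 (WD) FPKM in the light fraction but 31.3 and 31.7 FPKM in the heavy fraction, a log2 heavy to light ratio of -1.74 and -1.89. Its change with the diet was -0.18 in total RNA, 0.17 in the light fraction and 0.020 in the heavy fraction, each with an interval that included 1. Slc38a4, an amino acid transporter, had a light fraction change of -1.10 and a density change of 1.22.

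Of 11 transcription factors, receptors and other regulators known to act on urea cycle genes, 10 were compared, and 5 were higher and 5 lower in the heavy fraction (median 0.019). Cebpa, a liver transcription factor that drives several urea cycle genes, lay between 90.5 and 129 FPKM with diet changes of 0.039 to 0.098. Gcgr, the glucagon receptor, was at 10.3 (CD) and 20.9 (WD) FPKM in the heavy fraction, a change of 1.02. Its changes in total RNA and the light fraction were -0.22 and -0.30. No number of fragments could be inferred for Gcgr, so its counting error is not given. Nr3c1, the glucocorticoid receptor, was at 29.9 (CD) and 19.5 (WD) FPKM in the heavy fraction, a change of -0.61 (0.477 to 0.892), with a total RNA change of 0.13.

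Urea cycle enzymes are concentrated in periportal hepatocytes, near the vessels that bring blood from the gut, while Glul marks perivenous cells. Of 8 other periportal mRNAs compared, 6 were higher in the light fraction with the WD (median 0.53), and 5 had a density ratio of at most 0.75 (36.1% of all loci compared, 27.6% from 10 FPKM), with a median log2 change of -0.64. With the same FPKM sum, 5 of the 8 were higher in the light fraction (median 0.17). A density ratio of at most 0.75 was then found for 3 (27.2% of all loci compared), and the median density change was -0.31. Fbp1, a gluconeogenic enzyme, was at 75.7 (CD) and 201 (WD) FPKM in the light fraction, a change of 1.41 (2.07 to 3.44). Of 9 perivenous mRNAs, 4 were higher and 5 lower in the light fraction (median -0.19), and the median density change was 0.12. With the same FPKM sum, 2 of these were higher and 7 lower in the light fraction (median -0.54), and the median density change was 0.45. In total RNA, the median was -0.15 for the periportal list, and for the perivenous list it was 0.34 over 9 genes and 0.18 over the 5 that averaged at least 10 FPKM.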

How the data were processed

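FPKM values and their Cufflinks lower and upper bounds were deposited for 6 libraries. Per the labels and the study's methods, the authors depleted the RNA of ribosomal RNA, used TopHat for alignment to Rnor_6.0, and obtained FPKM from Cufflinks and Cuffnorm. The annotation is not given in the sources used here. A different route is described for Riboseq reads, and whether reads of the gradient fractions followed it is not certain.

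Loci that carried a symbol, had a status of OK and averaged at least 1 FPKM were compared as log2 ratios of FPKM + 0.1, and called at ratios of at least 1.5 or at most 0.75, limits that the study set on the CD to WD ratio of density, (scipy 1.17.1, numpy 2.4.6 and pandas 2.3.3 in Python 3.11.15, with plots by matplotlib 3.10.9). Fragment numbers were inferred as the whole numbers (within 0.01, up to 1000) that 1 step per gene and 1 factor per library explain, which was tested on simulated data. They gave 95% Clopper-Pearson intervals for ratios, conditional odds ratio intervals for density and exact Poisson intervals for levels, all for counting error only. Depth is known only relative to another library, and its estimate includes any scaling between libraries.

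The members and gene lists were chosen with earlier results of these data known. From each list, the 3 genes with the highest mean and those with the highest and lowest change of abundance and density (mean of at least 10 FPKM) could be named. Some genes that this rule covers are not reported here. The nearest genes were the 5 with the smallest root mean square distance to the median centred log2 FPKM profile of the 7 genes. Alternatives were other pseudocounts, filters, scalings, thresholds, summed loci, heavy over total RNA and, chosen after seeing the data, the limits set on CD over WD. The authors' own comparisons and the planned division by protein length were not used here.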

Additional observations from a re-analysis of the deposited data

Results flagged for a closer look

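For 4 of the 7 urea cycle mRNAs, the light and heavy fractions differed in the direction of the WD to CD change, and with 1 library per combination the difference was not tested. The signs also differed for 45.3% of all loci compared and for 43.5% of those averaging at least 10 FPKM, so 4 of 7 is near that share. Ass1 had a log2 change of 1.37 in the light and -0.035 in the heavy fraction. Arg1 was at 0.47 in the light and -0.14 in the heavy fraction, and Nags at 0.40 and -0.17. Asl had the opposite arrangement, with -0.36 in the light and 0.12 in the heavy fraction. With each library rescaled to the same FPKM sum, Cps1 also had opposite signs (-0.20 in the light and 0.078 in the heavy fraction), and the light fraction changes of Arg1 and Nags were 0.12 and 0.049. The heavy fraction intervals of all 4 genes included a ratio of 1, and so did the light fraction interval of Nags.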

How the results depend on the processing

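Over other pseudocounts, filters, scalings, summed loci and divisors, 41 of 43 medians of the 7 genes and 285 of 301 values of single genes, and, with other limits included, 84 of 100 percentages of called loci stayed within a counting error or within 1.5 times the value reported. Cps1 and the medians have no counting error of their own. For them the median counting error of the genes with intervals was used in its place. The filters and summed loci could not move any value of the 7 genes, because all averaged at least 10 FPKM and each symbol had 1 locus. These counts therefore include values that were fixed in advance. Rescaling to the same FPKM sum moved the median light fraction change of the 7 genes to 0.049, the median log2 heavy to light ratio with the WD to 1.29, and the share of loci lower in the light fraction to 44.1%. It also took the median density change of the 7 genes from -0.33 to -0.00068, so that median depended on the scaling. The density change of Ass1 changed sign to 0.26 when density was taken as heavy over total, which leaves out the light libraries. Without a filter on low values, the shares of loci called higher and lower were 9.20% and 10.6% for total RNA, 13.3% and 11.1% for the light fraction, 9.19% and 10.4% for the heavy fraction, 12.1% and 17.1% for density, 12.6% and 14.7% for heavy over light with the CD, and 11.9% and 17.8% with the WD. With a mean of at least 10 FPKM, the shares called higher were 8.77%, 17.1% and 13.3% for total RNA, the light and the heavy fraction. With a limit of 1.5-fold either way, 2 rather than 3 of the 7 genes were called lower in density (Nags was not) and 0 rather than 2 in heavy over light with the WD. No paired analysis was possible because each combination of diet and RNA is 1 library, and for the same reason no library could be left out. The division by protein length was not run. Depth limited Nags most, with 24 to 69 fragments per library.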

Other observations

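Among 3737 loci that averaged at least 10 FPKM with no library at 0, the 5 whose pattern over the 6 libraries was nearest to the median profile of the urea cycle genes included Ccbl2, Atp5b, Uba1 and Ndufv1, at root mean square distances of 0.058, 0.070, 0.072 and 0.10 on the log2 scale. Atp5b, a subunit of the mitochondrial ATP synthase, was at 426 (CD) and 407 (WD) FPKM in total RNA, 309 and 356 FPKM in the light fraction and 809 and 751 FPKM in the heavy fraction. The 7 genes themselves lay farther from their own median profile, from 0.18 for Nags to 0.63 for Ass1 and 0.67 for Slc25a15. The nearest genes were picked for the smallest of 3737 distances, and the 7 genes were not. The larger distances of the 7 genes are therefore no measure of how alike they are. The distances are descriptive, over 6 libraries that share pooled RNA and scaling.

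Apoa1, an apolipoprotein of the hepatocyte marker list, had a light fraction change similar in size to that of Ass1, at 246 (CD) and 626 (WD) FPKM (log2 change 1.35), with a density change of -1.52. Most other hepatocyte markers went the other way, and 7 of the 10 were lower in the light fraction with the WD (median -0.21).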
